A study of Homo sapiens with 6 samples.

Results

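Open chromatin was examined at the 10 genes that encode the AP-1 transcription factors FOS, FOSB, FOSL1, FOSL2, JUN, JUNB, JUND, ATF3, BATF3 and BATF, out of 20098 protein-coding genes annotated on chromosomes 1 to 22 and X. The genes were taken by name, and every ATAC-seq peak that overlapped a gene body extended by 50 kb to each side was collected. ATAC-seq uses the Tn5 transposase to cut DNA that is not covered by nucleosomes, so that open sites collect sequenced fragments. The samples were 3 esophageal cell lines with 2 libraries each: the non-cancerous epithelial line HET-1A (libraries 1 and 2) and the esophageal squamous cell carcinoma (ESCC) lines KYSE-30 (libraries 4 and 6) and KYSE-150 (libraries 7 and 8). None was treated. HET-1A was grown in BEBM with its additives and both ESCC lines in RPMI/F12 with serum, so line and medium cannot be told apart, and each group is a single cell line. HET-1A was immortalised with a viral oncogene, which limits it as a model of normal epithelium. The labels do not say whether the libraries of a line came from separate cultures.

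AP-1 factors carry a basic DNA-binding region followed by a leucine zipper (bZIP) and bind DNA as dimers. FOS proteins need a JUN partner, while JUN proteins also pair with each other, and most dimers bind the palindrome TGACTCA or TGAGTCA, each the reverse complement of the other. Dimers with ATF proteins prefer the cyclic AMP response element (CRE), TGACGTCA. Several of these genes are immediate-early genes, switched on within minutes by growth factors or stress, and in squamous epithelium AP-1 controls genes of proliferation and differentiation.

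Called peaks at these genes lay mostly in the 2 longest of the 6 lists, as did the peaks of the whole genome. Of the 63 peaks in the 10 windows, each counted once, 37 belonged to HET-1A library 2 and 19 to KYSE-30 library 6, together 88.9%, and the same libraries hold 92.5% of the 29879 peaks of all lists. HET-1A library 1 and KYSE-150 library 8 had none. ATF3, a stress-induced factor, was the member with own-promoter peaks in most libraries (4 of 6) and the only one with an own-promoter peak in both libraries of any line, KYSE-30. Its peak in KYSE-150 library 7 is among the lowest of that list by fold enrichment, a ratio explained below. BATF and BATF3 had no own-promoter peak in any library. An own promoter here reaches 3 kb to each side of any annotated transcript start of the gene, and 1 shared base pair counted as overlap.

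The sequences that these results turn on are printed below on the hg19 build, 5′ to 3′ along the strand of the member gene and without annotated UTR. Capitals mark the AP-1 core (TGACTCA or TGAGTCA), the CRE octamer (TGACGTCA) or the octamer TGACATCA, a JUN-type variant of the CRE that was added after the sequences had been seen. The first set shows DNA that was open in several libraries, cut to the part that the peaks have in common and to at most 300 bases.
ATF3 start, part common to 4 libraries, chr1:212781846-212782102, plus strand: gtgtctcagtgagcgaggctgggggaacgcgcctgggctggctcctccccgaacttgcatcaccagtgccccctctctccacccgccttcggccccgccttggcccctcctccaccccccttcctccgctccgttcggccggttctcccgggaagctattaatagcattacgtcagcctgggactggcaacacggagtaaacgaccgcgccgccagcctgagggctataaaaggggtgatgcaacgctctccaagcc
upstream of FOS, part common to 3 libraries, chr14:75725723-75725876, plus strand: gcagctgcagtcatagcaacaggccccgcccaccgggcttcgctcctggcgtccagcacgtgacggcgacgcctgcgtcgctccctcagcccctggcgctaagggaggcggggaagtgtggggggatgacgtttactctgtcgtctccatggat
JUN start, part common to 2 libraries, chr1:59249721-59250020, minus strand: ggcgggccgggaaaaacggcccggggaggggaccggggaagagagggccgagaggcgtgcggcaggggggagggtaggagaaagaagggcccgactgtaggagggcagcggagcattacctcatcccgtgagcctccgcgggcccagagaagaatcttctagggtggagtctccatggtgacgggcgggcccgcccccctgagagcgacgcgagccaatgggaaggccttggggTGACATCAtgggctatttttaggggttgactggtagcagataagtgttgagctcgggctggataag
downstream of JUN, part common to 2 libraries, chr1:59193228-59193442, minus strand: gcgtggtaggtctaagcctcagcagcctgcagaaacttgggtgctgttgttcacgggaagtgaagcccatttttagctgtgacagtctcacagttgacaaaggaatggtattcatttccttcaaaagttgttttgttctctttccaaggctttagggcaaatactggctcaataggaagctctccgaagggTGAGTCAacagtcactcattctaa
The second set shows up to 75 bases to each side of the motifs in peaks with an AP-1 core or a CRE near ATF3, FOSL1, FOSL2, JUN and JUND. They are given to show the motif in its surroundings. The stretch named ATF3 first promoter lies downstream of the first annotated start, inside the gene.
between ATF3 and BATF3, chr1:212829423-212829579, plus strand: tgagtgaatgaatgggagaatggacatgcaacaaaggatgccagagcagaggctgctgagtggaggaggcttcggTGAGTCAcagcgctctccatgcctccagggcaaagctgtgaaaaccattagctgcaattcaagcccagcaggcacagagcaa
ATF3 first promoter, chr1:212740518-212740674, plus strand: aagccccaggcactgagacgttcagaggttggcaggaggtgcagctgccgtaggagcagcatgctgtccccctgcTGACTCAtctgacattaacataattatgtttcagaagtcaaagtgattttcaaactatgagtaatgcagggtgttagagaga
upstream of FOSL1, chr11:65678981-65679159, minus strand: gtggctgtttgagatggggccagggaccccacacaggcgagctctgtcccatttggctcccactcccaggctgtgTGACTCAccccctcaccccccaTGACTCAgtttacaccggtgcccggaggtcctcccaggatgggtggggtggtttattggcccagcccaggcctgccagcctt
upstream of JUN, chr1:59289155-59289376, minus strand: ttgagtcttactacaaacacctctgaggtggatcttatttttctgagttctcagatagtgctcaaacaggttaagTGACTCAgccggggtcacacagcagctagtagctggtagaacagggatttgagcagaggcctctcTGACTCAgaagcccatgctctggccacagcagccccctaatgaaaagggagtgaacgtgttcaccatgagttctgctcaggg
inside FOSL2, chr2:28632257-28632413, plus strand: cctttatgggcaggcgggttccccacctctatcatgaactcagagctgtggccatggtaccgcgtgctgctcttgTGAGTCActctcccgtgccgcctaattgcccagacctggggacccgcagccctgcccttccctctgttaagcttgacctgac
JUND start, chr19:18392550-18392707, minus strand: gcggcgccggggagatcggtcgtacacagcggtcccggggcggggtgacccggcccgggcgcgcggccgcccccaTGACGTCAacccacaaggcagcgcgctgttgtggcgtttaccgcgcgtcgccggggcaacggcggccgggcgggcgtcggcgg
The AP-1 cores within the peaks at the starts of FOSL2 and FOSL1 lie at transcribed 5′ ends and are shown as short sites of at most 30 bases.
FOSL2 start, chr2:28615718-28615746, plus strand: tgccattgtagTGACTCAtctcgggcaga
FOSL1 start, chr11:65667843-65667871, minus strand: cacggcgcgggTGAGTCAgaacccagcag

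The lists differ in length. HET-1A library 2 (15979 peaks) and KYSE-30 library 6 (11671) had the longest, followed by KYSE-30 library 4 (1255), KYSE-150 library 7 (547), KYSE-150 library 8 (259) and HET-1A library 1 (168). They hold no read totals. The fold enrichment of a peak is the ratio of the tags at its summit to the local background of the same library, with 1 added to each, and both terms were recovered from the lists. The lowest local background of a library, called its genome background, ranged over 1.49 to 3.34 tags per 200 bp, with the lowest value in KYSE-30 library 6. Fold enrichment therefore ranks peaks within a library and is not a level that can be compared between libraries. Own-promoter peaks were found at 5 of 10 epithelial marker genes in HET-1A library 2 (KRT6A, KRT8, KRT18, EPCAM and DSP), beside 35.5% of all protein-coding genes. KYSE-30 library 6 had them at 2 of 10 (KRT8 and EPCAM), beside 28.8% of all protein-coding genes, and the other libraries at none. TP63, SOX2, KRT5, KRT14 and CDH1 had none in any library. Of 6 mesenchymal markers, COL3A1 and VIM had one in KYSE-30 library 6, and no marker of blood (4 genes) or endothelium (2 genes) had one in any library. The part of other cell types in the results was not tested.

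A permutation of 2 libraries against 2 has a smallest exact two-sided p-value of 0.33, so the lines were not tested against each other and each library is described on its own. In HET-1A library 2, 8 of 10 members had an own-promoter peak (80%, Wilson 95% interval 49.0 to 94.3%), beside 35.5% of all protein-coding genes. In KYSE-30 library 6 the count was 3 of 10 (30%, 10.8 to 60.3%) beside 28.8%, a share near that of all genes. The intervals cover counting error only. ATF3 was the 1 member with such a peak in KYSE-150 library 7, where 1.80% of all genes had one, and in KYSE-30 library 4, where 3.89% had one. HET-1A library 1 and KYSE-150 library 8 had own-promoter peaks at 0.0945% and 0.363% of all genes, so that few genes of any kind were called there and a missing member peak does not show a closed promoter. Requiring both libraries of a line left 0 members in HET-1A, 0 in KYSE-150 and 1 in KYSE-30, where 0.0498%, 0.0547% and 3.13% of all genes met the same rule.

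**Figure D1:**
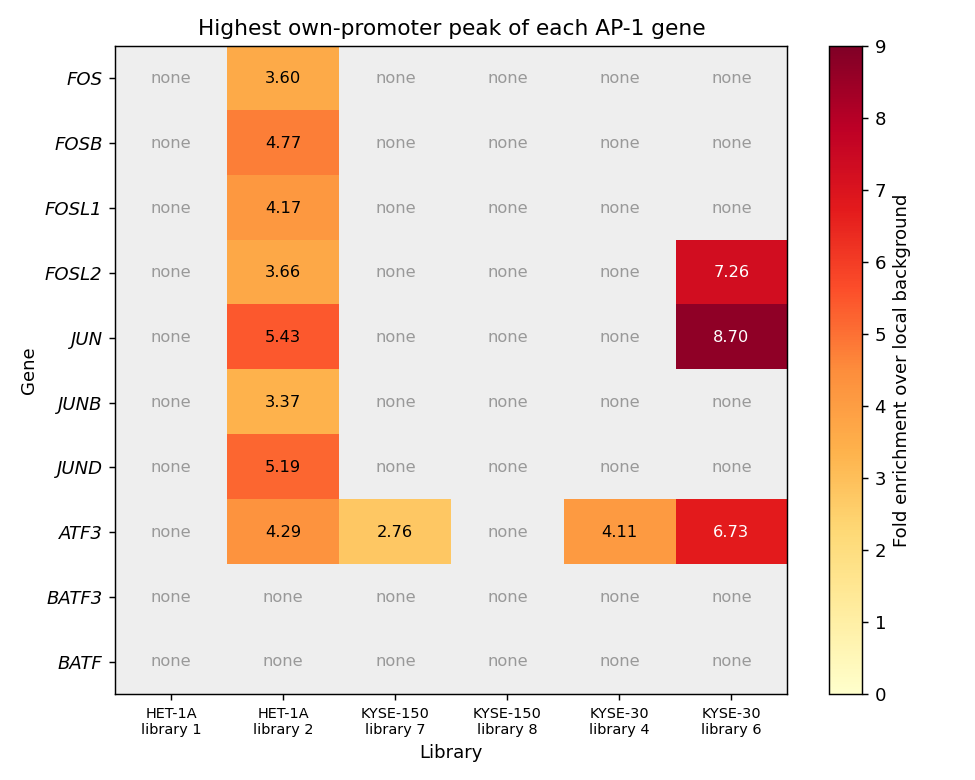
Fold enrichment over local background of the highest own-promoter peak of each AP-1 gene (rows) in each library (columns), as in the authors' lists. Grey cells marked none have no called peak, and ATF3 is the row with values in 4 libraries, between 2.76 and 6.73. The 6.73, in KYSE-30 library 6, is from a peak downstream of the first ATF3 start. The other ATF3 values are from a cluster of starts within the gene, where KYSE-30 library 6 had 6.63.

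**Figure D2:**
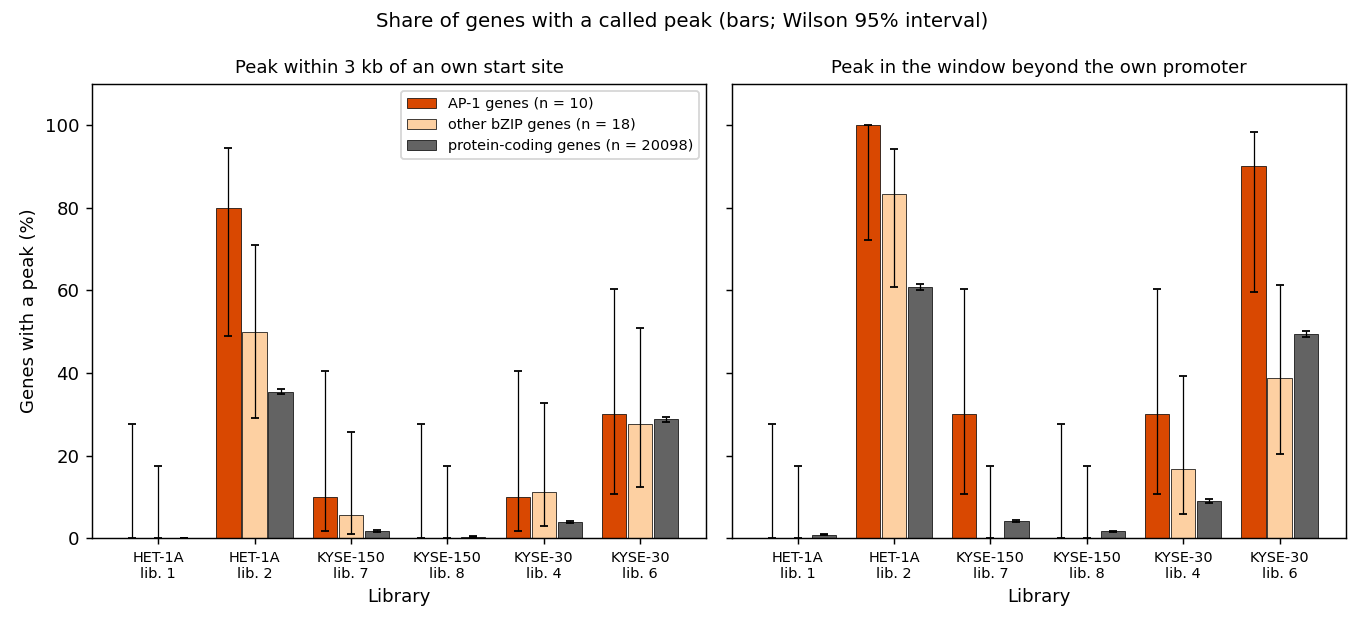
Percent of genes with a called peak in each library, for the 10 AP-1 genes, 18 other bZIP genes and 20098 protein-coding genes; bars show the share and lines its Wilson 95% interval. In HET-1A library 2, 80% of the AP-1 genes had an own-promoter peak beside 35.5% of all genes, while in KYSE-30 library 6 the shares were 30% and 28.8%.

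The FOS family was open at its own promoters in HET-1A library 2. FOS itself (chr14:75745529-75748933, plus strand), the founding immediate-early gene, had an own-promoter peak in that library with a fold enrichment of 3.60 and a summit 324 bp upstream of the gene start. The other 5 libraries had no peak there. This value exceeded only 27.4% of the peaks of its library.
FOSB (chr19:45971253-45978437, plus strand), whose short form is known from long-lasting neuronal activation, had a fold enrichment of 4.77 in HET-1A library 2 and no own-promoter peak elsewhere. Its summit lay inside the gene, 529 bp upstream of an internal transcript start and not at the 5′ end. FOSL1 (chr11:65659520-65668044, minus strand) encodes FRA1, a factor linked to invasion in many carcinomas. Its own-promoter peak was called in HET-1A library 2 alone, with a fold enrichment of 4.17, and spanned the annotated starts. The peak holds 1 AP-1 core, printed above as the FOSL1 start site.
FOSL2 (chr2:28615315-28640184, plus strand), which encodes FRA2, was open at its promoter in 2 libraries of different lines. The fold enrichment was 3.66 in HET-1A library 2, above 29.3% of that library's peaks, and 7.26 in KYSE-30 library 6, above 84.4%. Both peaks began past the first annotated start, overlapped exon and coding sequence of FOSL2, and contained the AP-1 core shown for the FOSL2 start. Each also spanned a later annotated start of FOSL2. The summit lay 36 bp upstream of the nearest start in HET-1A library 2 and 7 bp downstream in KYSE-30 library 6. FOSL2 and the antisense gene FOSL2-AS1 both start within 3 kb of these peaks, which cannot be assigned to either gene.

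Of the JUN family, JUN had the highest own-promoter value of any member. JUN (chr1:59242517-59249720, minus strand) encodes the main partner of the FOS proteins. It had a fold enrichment of 5.43 in HET-1A library 2 and 8.70 in KYSE-30 library 6, above 82.9% and 94.0% of the peaks of these libraries, and no own-promoter peak in the other 4. At the summit, 28 tags were counted against a local background of 4.34 in the former and 51 against 4.98 in the latter. The summits lay 104 and 105 bp upstream of the start. The part common to both peaks held TGACATCA, and the non-coding genes LINC01135 and ENSG00000290013 start within 3 kb of it.
JUND (chr19:18390504-18392432, minus strand), a member that is often expressed without stimulation, had a fold enrichment of 5.19 in HET-1A library 2 and no own-promoter peak elsewhere. Its summit lay 252 bp upstream of the start, and the peak held the CRE octamer shown for the JUND start. JUNB (chr19:12902300-12904129, plus strand) had a fold enrichment of 3.37 in HET-1A library 2 and none elsewhere. This JUNB peak met the 3 kb rule without lying at the start: its near edge was 2084 bp downstream, past the 3′ end of JUNB and inside the neighbouring gene HOOK2 (named here after its values were seen). With a promoter of 1 kb, JUNB had no own-promoter peak in any library.

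ATF3 (chr1:212738676-212794119, plus strand) encodes a stress-induced factor that pairs with JUN proteins or with itself. Its transcripts start over a long stretch, and a cluster of starts within the gene carried the peaks shared between lines. There the fold enrichment was 2.76 in KYSE-150 library 7, 4.29 in HET-1A library 2, and 4.11 and 6.63 in libraries 4 and 6 of KYSE-30. In the same order, these values exceeded 0.914%, 52.0%, 39.1% and 75.7% of the peaks of their libraries. HET-1A library 1 and KYSE-150 library 8 had no peak. The 4 peaks had 298 bp in common (chr1:212781846-212782143), and none of the 3 motifs occurred in the printed part of it. KYSE-30 library 6 had another ATF3 peak near the first start, with a fold enrichment of 6.73, a summit 1949 bp downstream of that start and 1 AP-1 core. It met the 3 kb rule without lying at the start: its near edge was 1804 bp downstream, inside the gene. When only the 5′ end of the gene record counted as the start, this was the sole ATF3 promoter peak.
The order of these fold enrichments is not an order of tag heights. The ATF3 summit in KYSE-150 library 7 held 56 tags, the most raw tags of any peak in the 10 windows, against a local background of 19.7 tags. The other libraries had 27 tags against 5.52 (HET-1A library 2), 28 against 6.06 (KYSE-30 library 4) and 36 against 4.58 (KYSE-30 library 6). Relative to the genome background of its library, the local background at ATF3 was 7.02 in KYSE-150 library 7, and 1.65, 2.56 and 3.08 in the other 3. The summit tags, divided in the same way, were 20.0 in KYSE-150 library 7, and 8.07, 11.8 and 24.2 in the other 3. By this measure the ATF3 peak of KYSE-150 library 7 was not the highest. The JUN promoter peak of KYSE-30 library 6 stood at 34.3. The 6 peaks of KYSE-150 library 7 within 1 Mb of ATF3 all had a relative background between 4.98 and 7.57, while the median over all peaks of this library was 1.40 and only 3.30% of them reached 4.98. The same stretch held 18 peaks at 1.00 to 2.07 in HET-1A library 2, 7 at 1.00 to 2.56 in KYSE-30 library 4 and 23 at 1.20 to 3.37 in KYSE-30 library 6. KYSE-150 library 8 had no peak there, so the raised background of library 7 has no replicate, and its part in the ATF3 result was not tested.

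**Figure D3:**
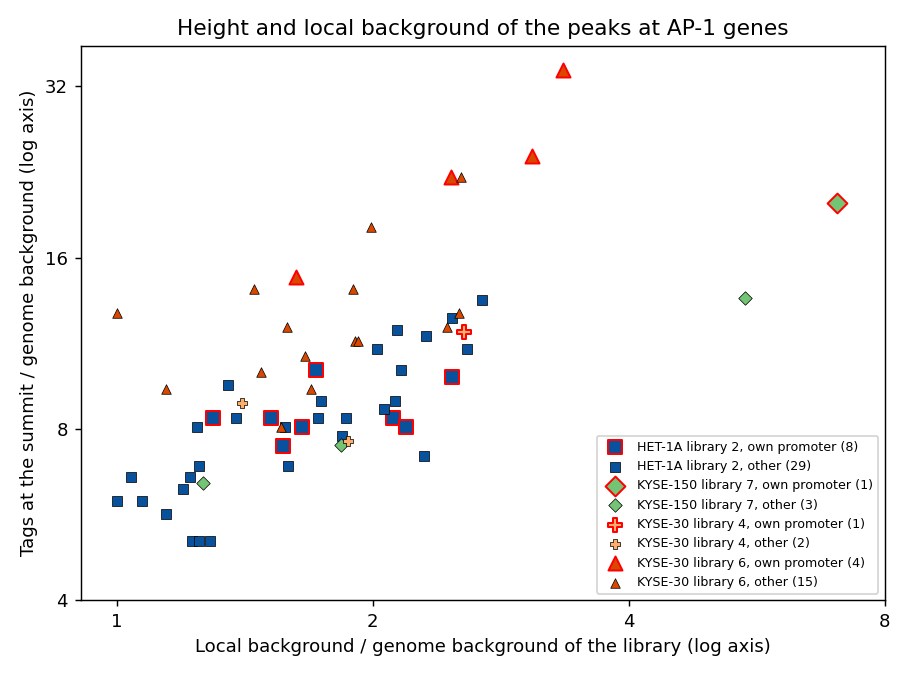
Tags at the summit (vertical, log axis) against local background (horizontal, log axis) of each peak in the AP-1 gene windows, both divided by the genome background of the library; red outlines mark own-promoter peaks. The ATF3 promoter peak of KYSE-150 library 7 stands at the far right, with a relative background of 7.02.

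BATF and BATF3 encode short factors that lack a transactivation domain of their own and are best known from lymphocytes and dendritic cells. BATF (chr14:75988798-76013336, plus strand) and BATF3 (chr1:212859759-212873182, minus strand) had no own-promoter peak in any library, as did 10751 of the 20098 protein-coding genes. The pattern of FOS, FOSB, FOSL1, JUNB and JUND, with a peak in HET-1A library 2 alone, was shared with 3280 protein-coding genes, these members included, and that of FOSL2 and JUN with 2971. The ATF3 pattern occurred in 42 genes. By the Euclidean distance of log2(1 + fold enrichment) over the 6 libraries, the genes most like ATF3 were RBM15 (distance 0.24), PPP2R5A (0.30) and ANKRD27 (0.31). PPP2R5A lies 203 kb from ATF3 on the same chromosome. Its KYSE-150 library 7 peak, at 2.94, belongs to the stretch of raised background around ATF3, which has no replicate.

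Beyond the own promoters, HET-1A library 2 had 30 peaks in the windows and KYSE-30 library 6 had 17. KYSE-150 library 7 and KYSE-30 library 4 had 3 each, and the remaining 2 libraries none. Many of these peaks lay within 3 kb of a start of another gene: 15 of 30 in HET-1A library 2 and 9 of 17 in KYSE-30 library 6. The same held for 3 of 3 in KYSE-150 library 7 and 1 of 3 in KYSE-30 library 4. A peak is counted for each gene whose window holds it: the windows of ATF3 and BATF3 share 34.4 kb. All 10 members had at least 1 such peak in HET-1A library 2, beside 60.8% of all protein-coding genes, and 9 of 10 (all but JUNB) in KYSE-30 library 6, beside 49.4%. The counts were 3 of 10 in KYSE-150 library 7 (FOSL1, JUN and ATF3) beside 4.18%, and 3 of 10 in KYSE-30 library 4 (FOS, ATF3 and BATF3) beside 9.06%. No member had one in HET-1A library 1 or KYSE-150 library 8, where 0.901% and 1.68% of all genes did.
The mean number of these peaks per gene in HET-1A library 2 was 3.0 for the members and 1.47 for all genes. In KYSE-30 library 6 the means were 1.7 and 0.826. The median length of the member windows was 108 kb, beside 127 kb over all protein-coding genes. The difference from other genes was described and not tested.

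**Figure D4:**
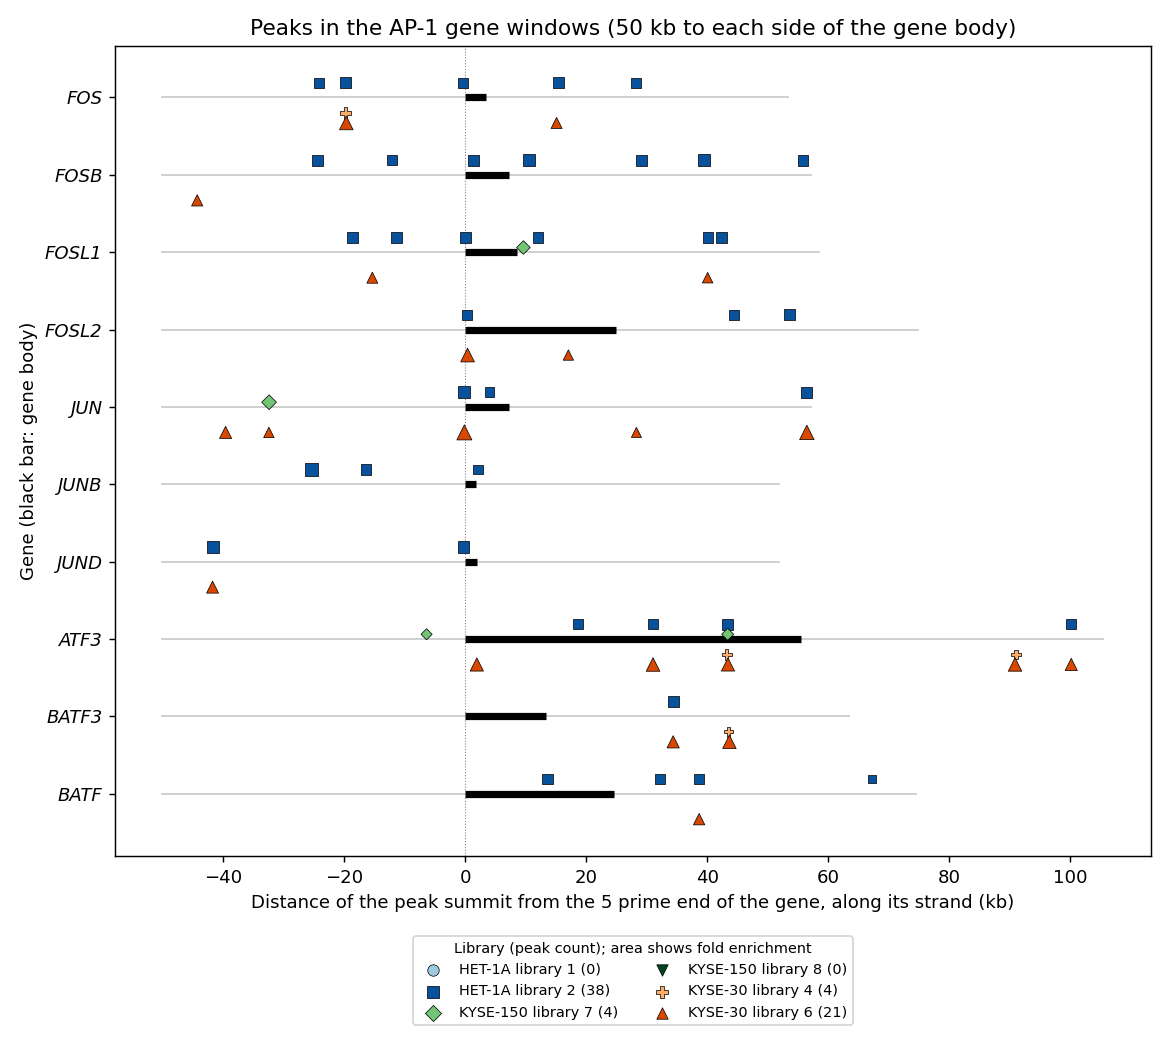
Summits of the peaks in the window of each AP-1 gene, by distance from the 5′ end of the gene in kb along its strand; symbols mark libraries, symbol area shows fold enrichment and black bars show gene bodies. Most symbols are those of HET-1A library 2 (38) and KYSE-30 library 6 (21), counting peaks shared by the ATF3 and BATF3 windows for each gene.

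Merged across libraries, the peaks formed 47 regions, of which 9 were own promoters, 19 lay within 3 kb of a start site of another gene and 19 at no annotated start site. In 34 regions a peak was called in 1 library, which was HET-1A library 2 for 26 regions, KYSE-30 library 6 for 6 and KYSE-150 library 7 for 2. Both libraries of a line had a peak in 3 regions, all in KYSE-30. The shorter list of KYSE-30 held 1255 peaks, beside 168 in HET-1A and 259 in KYSE-150. Own-promoter peaks in both libraries lay at 3.13% of all genes in KYSE-30, beside 0.0498% in HET-1A and 0.0547% in KYSE-150. The part of list length was not tested. The ATF3 start was one of the 3 regions. At the second, with summits 19609 to 19752 bp upstream of FOS, the fold enrichment was 5.09 and 7.07 in KYSE-30 libraries 4 and 6 and 5.04 in HET-1A library 2. This region (chr14:75725630-75726126) lies at the starts of the non-coding genes ENSG00000258820 and ENSG00000289340, and none of the 3 motifs was found in it. FOS therefore had a peak upstream in both KYSE-30 libraries without a called peak at its own promoter in either. The missing call does not show that the FOS promoter was closed in KYSE-30.
The third was the only region of the 10 windows that was called in KYSE-30 alone and by both of its libraries. It lies between ATF3 and BATF3 within the non-coding gene LINC02773 (chr1:212829365-212829747), at no start site. Fold enrichment was 3.51 in library 4 and 6.96 in library 6. The AP-1 core printed for this region lies in the peak of library 6 and outside the 91 bp that both peaks share. In the stretch shared by the ATF3 and BATF3 windows, HET-1A library 2 and KYSE-30 library 6 also had overlapping peaks, at a start of LINC02773, with values of 4.15 and 5.76.

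HET-1A library 2 had peaks in 37 regions and KYSE-30 library 6 in 19, and 11 of these were common to both. Across the genome, 28.6% of the HET-1A library 2 peaks overlapped a KYSE-30 library 6 peak, so 11 of 37 is near the general share. The fold enrichment was higher in KYSE-30 library 6 in 10 of the 11, but also in 73.3% of the 4570 HET-1A library 2 peaks that overlapped a KYSE-30 library 6 peak across the genome. FOS showed the 1 exception, with summits 15120 and 15422 bp downstream of its start, near LINC01220 and DPPA5P4, with 4.90 in HET-1A library 2 and 4.69 in KYSE-30 library 6. The region downstream of JUN, printed above, had 4.83 and 8.04 and held an AP-1 core. Its local background equalled the genome background in both libraries. Within ATF3, 31025 and 31051 bp from its first start, the values were 3.47 and 7.11. At LSM4, 41651 and 41698 bp upstream of JUND, they were 5.16 and 5.56. Downstream of BATF, at no start site, they were 4.02 and 5.00.
KYSE-150 shared 1 region other than the ATF3 start with another line. Its summits lie 32362 and 32396 bp upstream of JUN near starts of LINC01135 and ENSG00000272226, with a fold enrichment of 4.19 in KYSE-150 library 7 and 4.20 in KYSE-30 library 6. The 2 regions found in KYSE-150 library 7 alone were at CCDC85B and FIBP downstream of FOSL1, at 3.58, and upstream of ATF3, at 2.39. The latter was the lowest fold enrichment in the list of that library, with 38 tags against a local background of 15.3, and its peak holds both an AP-1 core and a CRE octamer. It belongs to the stretch of raised background around ATF3.
The windows also differ in how many other genes they hold. FOSL1 has 9 other protein-coding genes starting in its window, and of its 7 regions beyond the own promoter 6 lay at starts of CFL1, MUS81, CCDC85B, FIBP or C11orf68. FOSB has 4, and 5 of its 7 regions lay at other starts, among them those of ERCC1. FOS, JUN and BATF3 have none, and all 4 regions of the BATF window lay at no start site.

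Motif content was compared with all peaks of the same library. Beyond the own promoters, 5 of 29 peaks in HET-1A library 2 held an AP-1 core (17.2%, Wilson 95% interval 7.60 to 34.5%), beside 24.7% of all its peaks. In KYSE-30 library 6, 6 of 15 did (40%, 19.8 to 64.3%), beside 29.7%. The counts were 1 of 3 in KYSE-150 library 7, beside 5.12% of all its peaks, and 0 of 2 in KYSE-30 library 4, beside 12.9%. Both intervals of the larger libraries include the share of all peaks, which does not show that the shares are equal. The intervals treat peaks as independent, though several lie in the same window, and no test was run. Within 200 bp around the summit, 3 of 29 in HET-1A library 2 held a core (10.3%, beside 21.7% of all its peaks). In KYSE-30 library 6, 5 of 15 did (33.3%, beside 26.1%).
Among peaks at no start site, 5 of 15 in HET-1A library 2 (33.3%, 15.2 to 58.3%) and 5 of 7 in KYSE-30 library 6 (71.4%, 35.9 to 91.8%) held a core, beside 36.0% and 47.4% of all such peaks. The latter 5 were in the windows of JUN (2 peaks), FOSL2, ATF3 and, between ATF3 and BATF3, both of these. Peaks with 2 cores each lay at the sites printed as upstream of JUN (KYSE-30 library 6) and upstream of FOSL1 (HET-1A library 2), and at C11orf68 in the FOSL1 window (KYSE-30 library 6). At own promoters, 2 of 8 peaks in HET-1A library 2 (FOSL1 and FOSL2) and 2 of 4 in KYSE-30 library 6 held a core, beside 14.8% and 15.4% of all peaks at start sites. The latter were FOSL2 and the ATF3 peak with its summit 1949 bp downstream of the first start. Within 200 bp around the summit, 0 of 8 in HET-1A library 2 held a core, beside 12.4% of all peaks at start sites. In KYSE-30 library 6, 2 of 4 did, beside 12.6%. For comparison, 4.20% of 35116 RefSeq promoters (GRCh38.p14, 250 bases before the start) held the AP-1 core, 1.65% the CRE octamer and 2.37% TGACATCA on either strand. A match is a match of letters and does not show that a factor was bound.

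The 18 other bZIP genes examined in the same way encode further ATF, CREB and MAF factors and partners of AP-1. Own-promoter peaks lay at 9 of these genes in HET-1A library 2 (50%, beside 35.5% of all protein-coding genes). In KYSE-30 library 6 the count was 5 (27.8%, beside 28.8%), a share near that of all genes. It was 2 in KYSE-30 library 4 (11.1%, beside 3.89%) and 1 in KYSE-150 library 7 (5.56%, beside 1.80%). ATF2, a partner of JUN, had a fold enrichment of 6.68 in HET-1A library 2 and of 4.17 and 10.4 in libraries 4 and 6 of KYSE-30, and was like ATF3 in having peaks in both KYSE-30 libraries. ATF7, a close relative of ATF2, had values of 3.97 (HET-1A library 2), 5.40 (KYSE-150 library 7) and 7.01 (KYSE-30 library 6). Beyond the own promoter, 15 of 18 had peaks in HET-1A library 2 (10 of 10 AP-1 genes and 60.8% of all genes), 7 of 18 in KYSE-30 library 6 (9 of 10 and 49.4%) and 3 of 18 in KYSE-30 library 4 (3 of 10 and 9.06%). KYSE-150 library 7 had such peaks at 0 of 18, beside 3 of 10 AP-1 genes and 4.18% of all genes. These differences were not tested.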

How the data were processed

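ATAC-seq peak lists of 6 libraries from 3 cell lines were analysed. The authors trimmed reads, marked duplicates with Picard 2.2.1, mapped them to hg19 with Bowtie2 2.3.3.1, removed blacklisted regions with bedtools 2.7.1, shifted them for Tn5, kept short sub-nucleosomal fragments and called peaks per library with MACS2 2.1.0.20160309, without pooling or a control; versions are from the methods and the submitters' processing notes. The deposited lists hold a score derived from the q-value, a fold enrichment (a ratio), and p- and q-values as −log10. The largest q-value of a list was 0.0246 to 0.0495.

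Genes and transcript starts were those of GENCODE 44 on hg19; all 24 chromosome names were found in the genome and 0 peaks ended past a chromosome. Tags at the summit and local background were recovered from fold enrichment and p-value by the Poisson distribution, to within 0.001 in −log10 p, for 99.6 to 100% of peaks. On simulated data 100% of 300 peaks per library were recovered, and 100% of 200 planted promoter or window peaks per library were found. The simulated peaks followed the same formula and rules, so these checks cover the code only. Some local backgrounds, such as 19.7 tags at ATF3 in KYSE-150 library 7, lay above the simulated range. Motifs were searched on both strands of whole peaks. Intervals of shares are Wilson 95% intervals for counting error. Python 3.11.15, numpy 2.4.6, scipy 1.17.1 and matplotlib 3.10.9 were used.

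The members, gene lists and rules were chosen with earlier results of these data known. Named were all members, other bZIP genes with own-promoter peaks in at least 3 libraries or both libraries of a line, genes starting within 3 kb of window peaks of at least 2 libraries, and the 3 genes most like each member with at least 3 own-promoter libraries. PECAM1 was not matched among the endothelial markers. Alternatives were a q-value under 0.01 or 0.001, the 168 peaks of smallest p-value per library, 50% of the peak inside, a promoter of 1 kb and the gene record start only. Further ones were windows of 10 or 100 kb, a peak in either library, each library left out, and for motifs 200 bp around the summit or peaks at no start site. The authors' read counts and their other assays are not used here.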

Additional observations from a re-analysis of the deposited data

How the results depend on the processing

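Of 118 recomputed counts and motif shares, 92 stayed within 1.5 times the reported count or within the interval of the share, 15 were lower and 11 higher. Many of the 92 are counts of 0 that stayed 0, such as those of HET-1A library 1 and KYSE-150 library 8. Stricter settings cannot change a count of 0, so the tally is not a measure of stability for these. With a q-value under 0.01, at least 50% of the peak inside the promoter or window, or a promoter of 1 kb, all counts of the 10 genes per library stayed within that range. With a q-value under 0.001 the peaks beyond the own promoters fell to 1 in KYSE-30 library 4. With the 168 peaks of smallest p-value per library, own-promoter peaks were left at 0 members in HET-1A library 2, and at 0 and 1 (JUN) in libraries 4 and 6 of KYSE-30. ATF3 in KYSE-150 library 7 kept its peak under this ranking by p-value, though by fold enrichment it exceeded only 0.914% of its list. No member had an own-promoter peak in both KYSE-30 libraries (0) under this setting. Peaks beyond the own promoters were 0 in every library, down from 30 in HET-1A library 2 and 17 in KYSE-30 library 6. Fewer peaks in the longer lists are part of this alternative's construction. With the gene record start only, ATF3 lost its own-promoter peak in KYSE-150 library 7 (0 members) and KYSE-30 library 4 (0 members), and 0 members had one in both KYSE-30 libraries.

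Windows of 10 kb held 7 peaks beyond the own promoters in HET-1A library 2, and 0 and 2 in libraries 4 and 6 of KYSE-30. Windows of 100 kb held 55 in HET-1A library 2, 6 in KYSE-150 library 7, and 6 and 35 in libraries 4 and 6 of KYSE-30. A peak in either library gave 8 members in HET-1A, 1 in KYSE-150 and 3 in KYSE-30. Leaving out each library in turn gave 0 to 8 members in HET-1A (8 without library 1), 0 to 1 in KYSE-150 (1 without library 8) and 1 to 3 in KYSE-30 (3 without library 4). Among peaks at no annotated start site, the share with an AP-1 core was 71.4% (5 of 7) in place of 40% in KYSE-30 library 6 and 33.3% (5 of 15) in place of 17.2% in HET-1A library 2, while over all peaks of these libraries it moved the same way, from 29.7% to 47.4% and from 24.7% to 36.0%. No paired analysis was possible because the libraries of the lines share no number and no test was run. The lists hold called peaks and no read totals, so depth was not measured and a missing peak does not show closed chromatin.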
